A study of Mus musculus with 12 samples.

Results

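The genes described here differed between the stromal vascular cells of a visceral and a subcutaneous fat depot, while their mean level in the adipocytes of the same depots lay close together. RNA was sequenced from male mice of the inbred strain C57BL/6J that were 8 weeks old when a high-fat diet (HFD) began and received it for 10 weeks, a diet shared by all groups. Epididymal adipose tissue (EAT, visceral) and inguinal adipose tissue (IAT, subcutaneous) had been digested with collagenase I into adipocytes and stromal vascular cells (SVCs). Each of the 4 groups, the adipocytes and the SVCs of either depot, had 3 libraries. The labels do not say whether replicates came from separate animals or from pooled ones, and p-values therefore reflect only how far these libraries vary, which may be technical.

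White fat is built of adipocytes, which store lipid and secrete hormones such as leptin and adiponectin, and of a stroma that holds fibroblast-like adipocyte precursors, endothelial cells, pericytes and immune cells. The stroma is not the same in every depot: epididymal fat is covered by a mesothelium and gathers macrophages when mice become obese, while the inguinal pad encloses a lymph node. Precursors of different depots also keep different sets of developmental patterning genes. Genes that differ between depots in the stroma can therefore come from cells found in 1 depot only or from the same cells in another state, and in bulk RNA fewer cells of a type and less RNA per cell cannot be told apart.

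Members were chosen from TPM, a transcript level scaled to gene length and to the library's total. The ratio of mean TPM in EAT to mean TPM in IAT, after adding 0.1 to both, had to be at least 2.5 or at most 0.4 in SVCs and between 0.67 and 1.5 in adipocytes. A mean of at least 1 TPM in the higher SVC group and no overlap between EAT and IAT SVC libraries were also required. Of 32182 genes in the tables, 14541 reached 1 TPM in an SVC group (eligible genes), and 195 met the whole rule: 137 were higher in EAT SVCs and 58 were lower. The depot values of both fractions chose the members, so they are given as a description and with no test. The files name genes by UCSC transcript identifiers only, and no table used here pairs these with symbols, so 8 members are given by identifier, the cell types could not be checked against their markers, and no sequence is printed.

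The SVC part of the rule alone was met by 3.16% of eligible genes in the direction of EAT (460 genes) and by 1.51% in the direction of IAT (220 genes). Of the 460, 265 were also above a ratio of 1.5 in adipocytes, 137 lay in the window and 58 were below 0.67. Of the 220, 157 were below 0.67 in adipocytes, 58 lay in the window and 5 were above 1.5. Members were thus 29.8% of the EAT-high and 26.4% of the IAT-high stromal genes, and in both directions the larger share moved the same way in adipocytes.

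**Figure D1:**
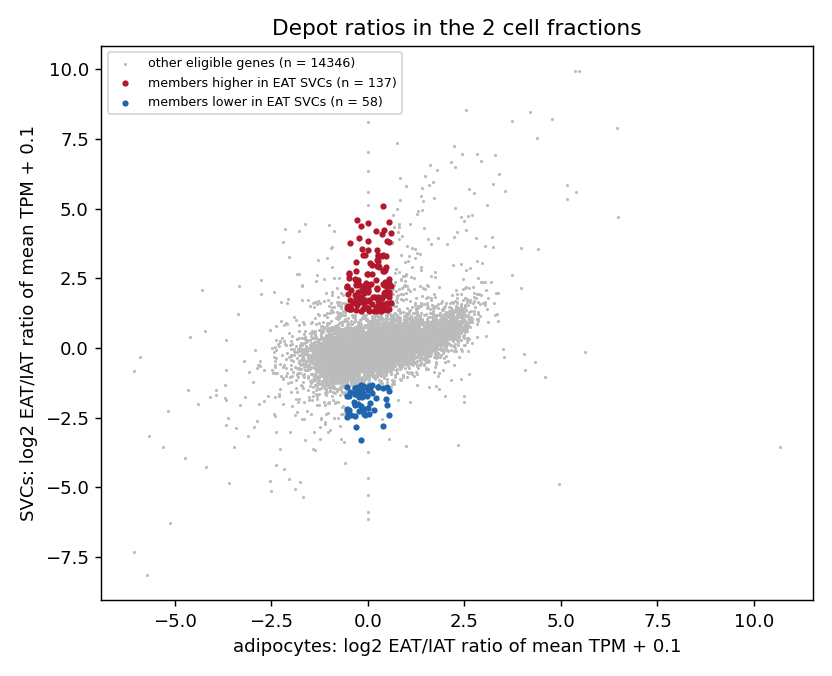
Each point is 1 of the 14541 eligible genes, placed by its log2 ratio of EAT to IAT mean TPM (plus 0.1) in adipocytes on the horizontal axis and in SVCs on the vertical axis. The 137 members higher in EAT SVCs (red) and the 58 lower (blue) form 2 bands around 0 on the adipocyte axis, cut off by the thresholds of the rule.

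Most members were rare transcripts. In the higher SVC group 65 of 195 (33.3%) lay between 1 and 2 TPM and 45 (23.1%) reached 10 TPM, against 9.27% and 64.5% of eligible genes. Among members higher in EAT SVCs the median mean level was 2.98 TPM in EAT SVCs and 0.520 TPM in IAT SVCs, and the ratio had a median of 4.48 (quartiles 3.12 and 6.98, highest 34.3). In 5 of these 137 all IAT SVC libraries were listed at 0, and their ratios rest on the added 0.1. Among members lower in EAT SVCs the medians were 0.978 TPM in EAT SVCs and 3.35 TPM in IAT SVCs, and the ratio of IAT to EAT had a median of 3.35 (quartiles 2.81 and 4.62, highest 9.91). The gap between the groups varied: the lowest library of the higher group was at least 2 times the highest library of the lower group in 99 of the 137 and in 38 of the 58.

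The strongest member in the direction of EAT was uc007gxb.1, a gene of 2 transcripts with a mean length of 1736 bases. It stood at 5.16, 4.58 and 6.09 TPM in the EAT SVC libraries and at 0.06, 0 and 0.11 TPM in the IAT SVC libraries. The 2 SVC groups lay far apart, with 300.6 summed counts in EAT against 3 in IAT. Scaled to library size the counts differed 93.7-fold, and the ratio of the rule, damped by the added 0.1 TPM, was 34.3. The 95% interval from counting error alone, on rounded expected counts, was 31.8 to 457. It does not allow for the choice of this gene by its large ratio, so it is a description and no test. In adipocytes it had 1.00, 0.45 and 0.64 TPM in EAT and 0.33, 0.42 and 0.77 TPM in IAT, and these libraries overlapped. Its adipocyte ratio was 1.31 with all libraries and 1.52, just outside the window, without EAT adipocyte replicate 2.

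The next member, uc007ofx.1 (3 transcripts, mean length 5181 bases), had 20.71, 22.7 and 23.67 TPM in EAT SVCs and 0.67, 0.85 and 0.97 TPM in IAT SVCs, a ratio of 24.2. Its adipocyte libraries held 8.81, 6.78 and 10.74 TPM in EAT and 8.88, 12.16 and 11.13 TPM in IAT. All adipocyte libraries therefore stood between the 2 stromal groups, below EAT SVCs and above IAT SVCs. This order, with all 6 adipocyte libraries between the SVC groups, was found in 6 of the 137 members higher in EAT SVCs and in 0 of the 58 lower ones. Over all eligible genes, members included, it was found in 10 of 14541 (0.0688%). It needs SVC groups that do not overlap, which the rule required, so it is given as a description.

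In the direction of IAT, uc009bag.2 (1 transcript of 2115 bases) had 25.63, 20.52 and 21.69 TPM in IAT SVCs against 4.51, 1.88 and 2.89 TPM in EAT SVCs, a ratio of IAT to EAT of 7.11. In adipocytes it was near the floor of detection in both depots, at 0.82, 0.13 and 0.24 TPM in EAT and 0.49, 0.49 and 0.58 TPM in IAT. The EAT adipocyte libraries lay on both sides of the IAT ones.

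The gene uc007tmw.1 (2 transcripts, mean length 690 bases) had 80.01, 81.99 and 105.0 TPM in IAT SVCs against 6.48, 34.8 and 6.71 TPM in EAT SVCs, a ratio of IAT to EAT of 5.54. Its EAT adipocyte libraries held 0.85, 14.29 and 2.25 TPM and its IAT adipocyte libraries 7.66, 7.35 and 10.56 TPM. In both EAT fractions replicate 2 was the high library. The adipocyte ratio was 0.684 with all libraries and 0.191 without EAT adipocyte replicate 2, far outside the window and in the direction of its SVC difference.

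**Figure D2:**
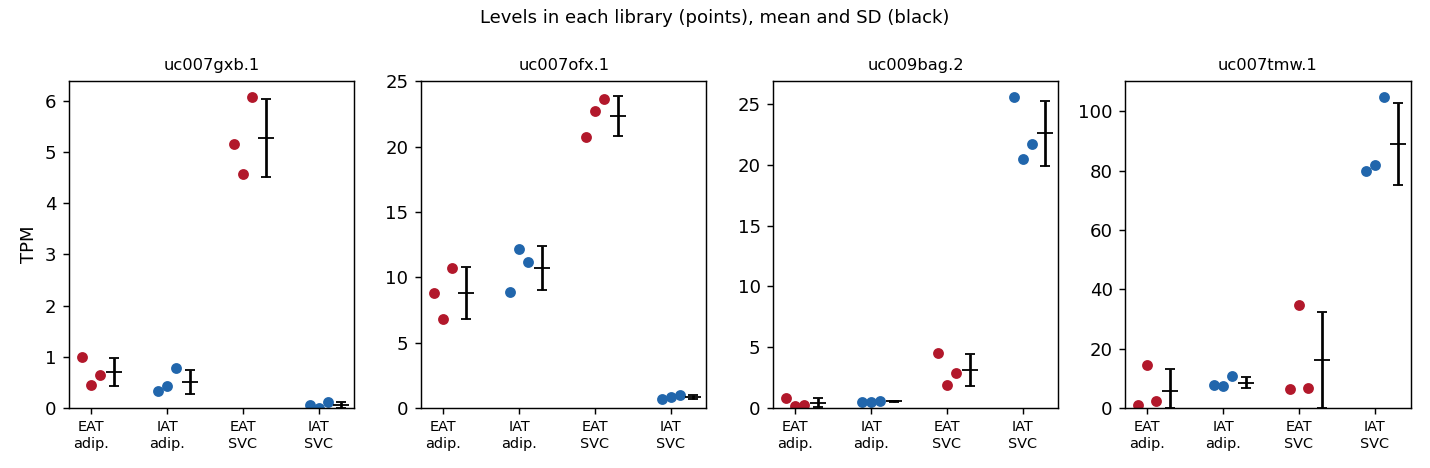
TPM in each library (points) with the group mean and SD (black, n = 3) for the 2 members with the largest ratio in each direction among those with at least 5 TPM in the higher SVC group; EAT is red and IAT blue, and each panel has its own scale from 0. The SVC groups do not overlap in any panel, while the adipocyte libraries of uc007tmw.1 run from 0.85 to 14.29 TPM in EAT.

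The most abundant member in the direction of EAT, a gene with 1 transcript of 3103 bases, stood at 3580, 2979 and 4251 TPM in EAT SVCs and at 913.3, 626.3 and 676.6 TPM in IAT SVCs. In adipocytes it had 1008, 180.7 and 995.8 TPM in EAT and 722.6, 900.5 and 651.2 TPM in IAT, and replicate 2 was the low one in EAT. The adipocyte ratio was 0.960 with that library and 1.32 without it, inside the window both times. The second, a gene of 869 bases, had 1261 ± 224 TPM (SD, n = 3) in EAT SVCs and 180.8 ± 51.3 TPM in IAT SVCs, and its adipocyte ratio went from 1.36 to 1.91 without that library.

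The most abundant member in the direction of IAT, a gene with 1 transcript of 598 bases, stood at 5203, 5630 and 6847 TPM in IAT SVCs and at 1024, 2038 and 1460 TPM in EAT SVCs. In adipocytes it had 362.6, 1214 and 611.6 TPM in EAT and 596.8, 527.8 and 984.3 TPM in IAT. Here replicate 2 was the high library in both EAT fractions, and the adipocyte ratio went from 1.04 to 0.693 without EAT adipocyte replicate 2.

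EAT adipocyte replicate 2 departed from the other 2 libraries of its group along gene length, by a median of 0.45 log2 in the shortest 10% of genes and of -1.26 in the longest 10%. The median over members was -0.34. Without it 109 of the 137 members higher in EAT SVCs stayed in the adipocyte window, and of the 28 that left it 21 went above 1.5 and 7 below 0.67. Of the 58 members lower in EAT SVCs, 48 stayed, 4 went above and 6 below. Its part in the near-equal adipocyte levels was not tested beyond these values.

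The adipocyte window was met in different ways. In 126 of 195 members (64.6%) both adipocyte groups were below 1 TPM, and in 98 both were below 0.5 TPM, against 11.4% and 6.59% of all eligible genes. Low adipocyte levels were common among stromal depot genes in general: 45.9% of the 460 EAT-high and 49.1% of the 220 IAT-high genes were below 1 TPM in both adipocyte groups, members included. Among those that moved the same way in adipocytes the shares were 42.3% and 44.6%. At such levels the added 0.1 TPM draws the ratio toward 1. These 126 members had a median of 22.5 counts summed over the 6 adipocyte libraries, and 86 of them had under 50. Without the added 0.1 TPM, 66 of the 126 still had an adipocyte ratio in the window, 55 fell outside and 5 were listed at 0 in all adipocyte libraries. For these genes the files show little adipocyte RNA in either depot, and a ratio near 1 does not show that the adipocyte levels are equal.

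The other 69 members reached 1 TPM in an adipocyte group, 49 of those higher and 20 of those lower in EAT SVCs, and had a median of 860 summed adipocyte counts. Among the 49 the median level was 8.44 TPM in EAT adipocytes, 7.66 in IAT adipocytes, 12.5 in EAT SVCs and 2.55 in IAT SVCs. Among the 20 the medians were 5.19, 5.71, 3.10 and 10.8 TPM in the same order. Both adipocyte groups held at least 10 TPM in 25 members, 19 higher and 6 lower in EAT SVCs. These were 12.8% of all members, against 50.2% of eligible genes. Without EAT adipocyte replicate 2, 12 of the 49 and 5 of the 20 left the window.

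**Figure D3:**
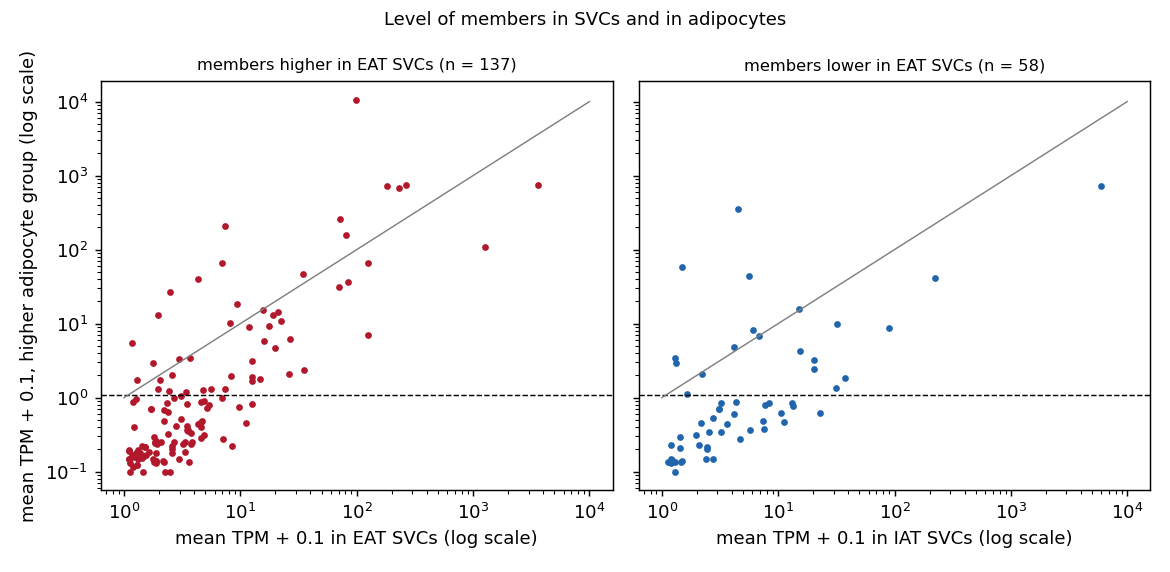
Each point is a member, placed by its mean TPM (plus 0.1, log scale) in the higher SVC group and in the higher adipocyte group; the dashed line marks 1 TPM in adipocytes and the grey line equal levels. The 126 members below the dashed line had less than 1 TPM in both adipocyte groups. A smaller number of members lie above the grey line, with more RNA in the higher adipocyte group than in the higher SVC group.

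The adipocyte libraries of the 2 depots overlapped in 180 of 195 members. All EAT adipocyte libraries were above all IAT ones in 5 members and below them in 10, against 19.2% and 23.2% of eligible genes. Since the window removes genes with large adipocyte ratios, nothing is read from this difference. The spread inside groups was wide: the coefficient of variation (SD as a percent of the mean) of members higher in EAT SVCs had a median of 47.6% in EAT adipocytes, 31.0% in IAT adipocytes, 23.1% in EAT SVCs and 31.3% in IAT SVCs. Over all eligible genes, which are more abundant, these medians were 28.5%, 11.8%, 9.68% and 9.07%.

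Within EAT SVCs, replicate 3 was the highest library for 64 of the 137 members higher there, replicate 1 for 52 and replicate 2 for 21. Over all eligible genes replicate 2 was the highest most often, for 47.9%, and replicate 3 for 28.7%. In 12 of the 137 the highest library was at least 2 times the next, and in 10 of these it was replicate 3. Among the IAT SVC libraries replicates 1, 2 and 3 were the highest for 24, 18 and 16 of the 58 members higher there. These shares of 41.4%, 31.0% and 27.6% lay near those of all eligible genes, 40.6%, 30.9% and 28.5%. Without EAT SVC replicate 3 the rule chose 126 genes in the direction of EAT, of which 114 were among the 137.

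How far the 2 depot patterns recur was read in libraries that had no part in the choice. Genes were chosen by the rule from 2 libraries per group and measured in the left-out replicate of every group. For replicates 1, 2 and 3 left out, the rule chose 147, 140 and 135 genes as higher in EAT SVCs. Of these only 96, 96 and 89 were members, so the shares below are not those of the described group. In the left-out SVC libraries 133, 131 and 127 of all the chosen genes were higher in EAT. The ratio of 2.5 was passed by 104, 99 and 100 of them, or 70.7%, 70.7% and 74.1%, against 3.57%, 3.99% and 3.66% of eligible genes. Of all eligible genes 45.8%, 56.8% and 50.8% were higher in EAT in the same libraries. Their median log2 SVC ratio was 1.94 ± 0.228 (SD over the 3 left-out replicates) against 2.07 in the libraries that chose them.

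As lower in EAT SVCs 79, 96 and 72 genes were chosen, of which only 41, 40 and 38 were members. Of all those chosen, 73, 89 and 59 were lower in the left-out SVC libraries, against 53.9%, 42.8% and 48.9% of eligible genes. The threshold of 0.4 was passed by 50, 44 and 38 of them, or 63.3%, 45.8% and 52.8%, against 2.57%, 1.83% and 2.09% of eligible genes. Their median log2 SVC ratio was -1.40 ± 0.165 against -1.73 in the choosing libraries. The direction of the stromal difference was therefore seen again in most of the chosen genes, which are only in part the members. Its size past the threshold was seen again in most except the lower genes with replicate 2 left out. The median was nearer to 0 than in the choosing libraries in every case except replicate 3 of the higher genes, where it was 2.17 against 2.09.

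With the 0.1 TPM of the rule added, the near-equal adipocyte level did not recur consistently above the background. In the left-out adipocyte libraries 53.1%, 50.7% and 45.2% of the genes chosen as higher in EAT SVCs were within the window, against 54.4%, 42.1% and 63.8% of all eligible genes measured in the same single libraries. For the genes chosen as lower the shares were 43.0%, 42.7% and 56.9%. In 4 of these 6 cases the share was below that of eligible genes. Among chosen genes with at least 1 TPM in adipocytes the shares were 44.4%, 25% and 51.4% (higher) and 38.5%, 41.7% and 61.9% (lower), against 55.4%, 41.9% and 65.3% of eligible genes at that level, below them in all 6 cases. Below 1 TPM in adipocytes the shares were 58.1%, 62.5% and 42.9% (higher) and 45.3%, 43.3% and 54.9% (lower). Eligible genes at that level gave 47.1%, 43.6% and 52.5%. Left-out replicate 2 holds the library with the length trend. The median log2 adipocyte ratio in the left-out libraries was 0.18 ± 0.314 for genes chosen as higher in EAT SVCs and -0.35 ± 0.303 for those chosen as lower, and in both directions it was 0 in at least 1 left-out replicate. Both parts of the rule were met again by 31.1% to 38.1% of the genes chosen as higher and by 19.8% to 25% of those chosen as lower. Over all eligible genes the share meeting both parts was not computed. It cannot exceed the share past the SVC threshold alone. That share was 3.57% to 3.99% in the direction of EAT and 1.83% to 2.57% in that of IAT.

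**Figure D4:**
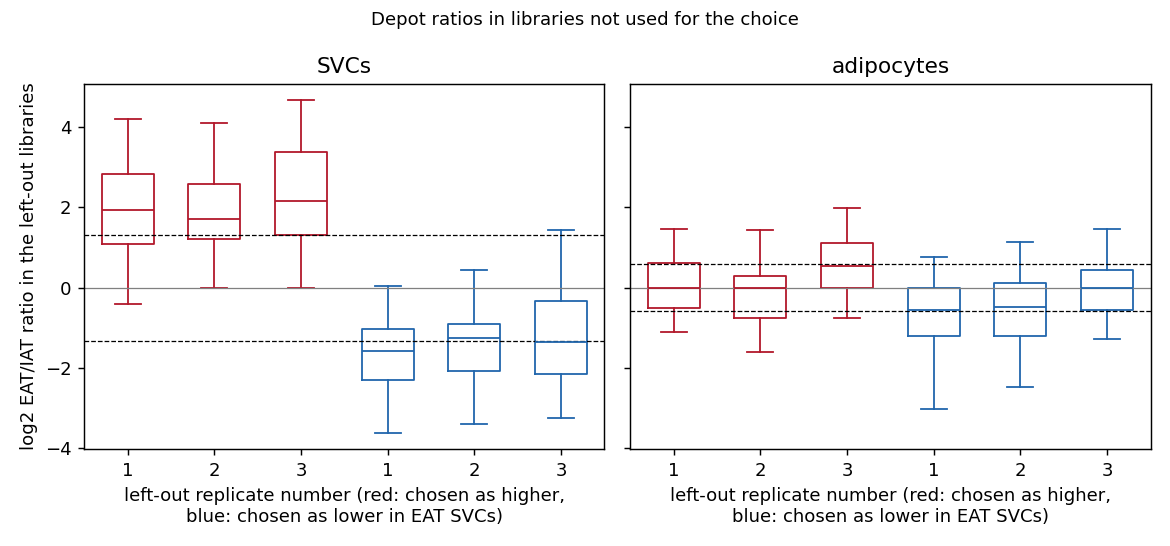
Log2 ratio of EAT to IAT in the left-out libraries for genes chosen from the other 2 replicates, in SVCs (left) and adipocytes (right); boxes show quartiles and median, whiskers the 5th and 95th percentiles, and dashed lines the thresholds of the rule. In SVCs the red boxes (chosen as higher in EAT) have medians of 1.71 to 2.17 and the blue ones -1.26 to -1.58, while the adipocyte boxes lie closer to 0, and 5 of the 6 reach past 1 of the dashed lines.

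Where members had more RNA was described by comparing SVCs with adipocytes in the mean over both depots. This contrast is not independent of the choice of members: the floor of 1 TPM in SVCs favours the stromal direction, and the added 0.1 TPM lets genes with little adipocyte RNA into the adipocyte window. The counts below therefore describe the members and support nothing further. Of 181 members with enough counts to be tested, 122 were higher in SVCs, 38 were higher in adipocytes and 21 did not pass (edgeR's quasi-likelihood test, adjusted p below 0.05 over 15813 genes). Among all genes tested 42.3% were higher in SVCs and 32.8% in adipocytes, and among tested genes with at least 1 TPM in SVCs the shares were 42.3% and 32.6%.

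By direction, 79 of 127 tested members higher in EAT SVCs were higher in SVCs and 29 in adipocytes, and 43 of 54 tested members lower in EAT SVCs were higher in SVCs and 9 in adipocytes. Of the 114 tested members below 1 TPM in both adipocyte groups, 100 were higher in SVCs and 0 in adipocytes, a direction that these levels largely fix: of all eligible genes with the same levels, 1379 of 1512 tested were higher in SVCs and 0 in adipocytes. Of the 67 tested members that reached 1 TPM in an adipocyte group, 22 were higher in SVCs and 38 in adipocytes, against 4685 and 4676 of 12816 eligible genes at that level. This split uses the adipocyte level itself. All 6 adipocyte libraries lay above all 6 SVC libraries in 12 members higher and 5 lower in EAT SVCs. These were 8.76% and 8.62% of the members in each direction, against 12.4% of eligible genes. Stromal depot genes that moved the same way in adipocytes were higher in SVCs for 54.3% of the EAT-high and 69.3% of the IAT-high genes, against 62.2% and 79.6% of the members. These shares were not tested against each other.

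**Figure D5:**
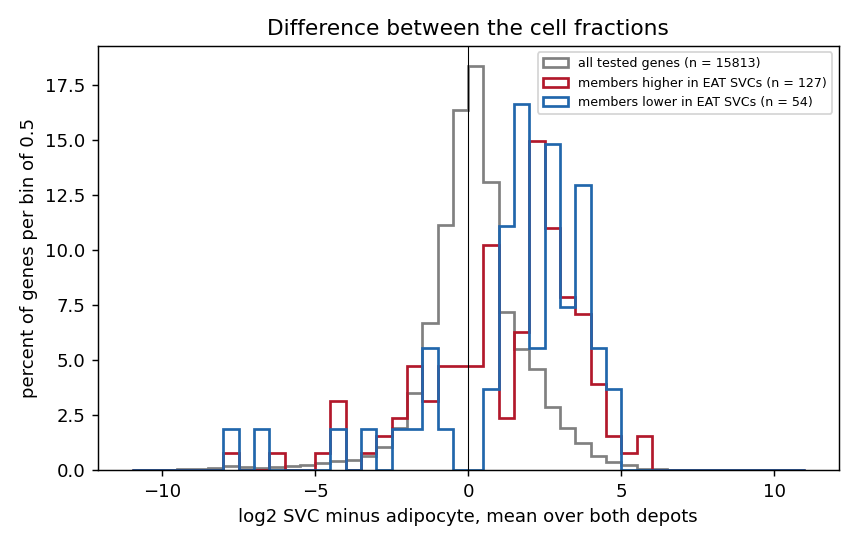
Distribution of the log2 difference between SVCs and adipocytes (mean over both depots) for all 15813 tested genes (grey), 127 tested members higher in EAT SVCs (red) and 54 lower (blue), in percent of genes per bin of 0.5. Members in both directions lie mostly to the right of 0, the side of SVCs. Those to the left of 0 include genes called higher in adipocytes and genes that were not called.

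Of the genes named above, uc009bag.2 was higher in SVCs by 3.83 log2 (SE 0.30, adjusted p = 1.9e-07, edgeR). The gene uc007tmw.1 was higher by 1.84 (SE 0.58, adjusted p = 0.0125, edgeR), which was 1.24 without EAT SVC replicate 2 and 1.71 with DESeq2, and passed in neither. Without EAT adipocyte replicate 2 it was 2.97. The gene uc007ofx.1, with its adipocyte level between the stromal groups, was lower in SVCs by 1.31 on this mean of logs, although in EAT its SVC level was the higher one (log2 -1.31, SE 0.12, adjusted p = 9.9e-07, edgeR), and uc007gxb.1 did not pass (log2 -0.46, adjusted p = 0.275, edgeR).

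The 2 members with the largest difference toward each fraction were chosen after their values were seen. They came from members with at least 10 counts in every group and an adjusted p below 0.05 in this contrast (edgeR). Their p-values were thus part of the choice and are given only as a description. Toward adipocytes, uc009nin.2 (1345 bases) had 7918, 12527 and 11442 TPM in EAT adipocytes and 8398, 7834 and 7851 TPM in IAT adipocytes, and its log2 difference was -8.00 (SE 0.27, adjusted p = 1.4e-10, edgeR). In the stroma it stood at 126.4, 76.12 and 91.86 TPM in EAT and 26.6, 20.03 and 27.56 TPM in IAT. This gene is thus a member through a stromal level that was a small part of its adipocyte level in both depots. The second, uc008hnl.2 (1900 bases, log2 -7.71, SE 0.39), had 1.04 ± 0.513 TPM in EAT SVCs and 4.44 ± 0.612 TPM in IAT SVCs against 293.4 ± 142 and 349.5 ± 99.6 TPM in EAT and IAT adipocytes (SD, n = 3). Its adipocyte ratio of 0.840 became 0.606 without EAT adipocyte replicate 2.

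The level of adipocyte-enriched genes in the stromal libraries was read over the 938 non-members called at least 4-fold higher in adipocytes. These values cannot tell RNA of adipocytes apart from RNA made by the stromal cells themselves. Of the 938, 593 had at least 1 TPM in an SVC group, and at lower levels the added 0.1 TPM draws the ratio toward 1. Their summed level was 2.92% to 3.09% of all TPM in EAT SVC libraries and 2.93% to 3.06% in IAT SVC libraries, and their median ratio of EAT to IAT in SVCs was 1.00 (quartiles 0.776 and 1.23). The 38 members higher in adipocytes had median stromal ratios, set by the rule, of 4.21 for the 29 higher in EAT SVCs and 3.44 (IAT to EAT) for the 9 lower. The part of adipocyte RNA in these ratios was not tested.

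Toward SVCs, uc009cfv.2 (2 transcripts, mean length 20359 bases) was higher by 4.77 log2 (SE 0.42, adjusted p = 5.8e-07, edgeR), with 3.42, 1.72 and 3.45 TPM in EAT SVCs, 1.09, 0.35 and 0.30 TPM in IAT SVCs, and at most 0.08 TPM in any adipocyte library. The gene uc008yfj.1 (2 transcripts, mean length 14065 bases) was higher by 4.17 (SE 0.23, adjusted p = 7.8e-09, edgeR), with 3.24, 3.13 and 3.34 TPM in EAT SVCs and 0.24, 0.25 and 0.23 TPM in IAT SVCs.

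The rule did not name gene length, but EAT adipocyte replicate 2, with its length trend, enters the adipocyte ratio. Members lower in EAT SVCs were short, with a median length of 1847 bases (quartiles 1149 and 2455) against 2580 bases for eligible genes. Of these members 77.6% were shorter than the median eligible gene. Eligible genes were also more abundant, with 64.5% at 10 TPM or more in the higher SVC group against 25.9% of these members. Other stromal depot genes were short as well: the median was 1996 bases over all 220 IAT-high genes and 2037 bases over the EAT-high genes that moved the same way in adipocytes. Members higher in EAT SVCs had a median of 2417 bases, and 52.6% were shorter. A single transcript was listed for 32 of the 58 lower members (55.2%) and 53 of the 137 higher ones (38.7%), against 33.4% of eligible genes. With a floor of 5 TPM, 65.1% of the higher members were shorter than the median eligible gene and 48.8% had 1 transcript. In 37 members, or 19.0%, an expected count was not whole (by more than 0.005) in at least 1 library, against 25.8% of eligible genes. Such counts mark reads shared between genes, and these members are uncertain where near-identical copies could split reads. Among them were uc007gxb.1, uc007ofx.1, uc009cfv.2 and both of the most abundant members described in the direction of EAT.

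Members also lay next to each other in the authors' running numbers. Of the 195, 19 (9.74%) had a number next to that of another member, against 1.44% of eligible genes with a member next to them. They formed 10 pairs, of which 9 went in the same direction, and 4 of the 19 had counts that were not whole. The sources used here do not state what order the numbers follow, and neighbouring or overlapping genes may share reads.

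Values near the bounds show no gap. The SVC ratios nearest to the upper bound were 2.5, 2.5 and 2.502 inside and 2.499, 2.488 and 2.483 outside, and at the lower bound they were 0.399, 0.394 and 0.393 inside and 0.4003, 0.4005 and 0.4006 outside. At the upper adipocyte bound 3 members had a ratio of 1.5, with 1.506, 1.508 and 1.514 outside, and at the lower bound 0.681, 0.682 and 0.684 lay inside and 0.6674, 0.6667 and 0.6667 outside.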

How the data were processed

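The deposited tables, 1 per library, hold expected counts, TPM, FPKM and gene lengths in bases, per the file headers. Bowtie2 2.2.6, RSEM 1.2.25 and limma are listed, without roles, in the submitters' processing notes, as are the builds GRCm38 and mm10. The sources used here do not state if reads were counted by strand. The deposited FPKM values were not used. Libraries held 20707325 to 26349357 expected counts, and intervals cover counting error only.

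Group means of the deposited TPM values chose the members, with a ratio equal to a bound counted as inside. The members, lists and tests were chosen with earlier results of these data known. Expected counts were rounded, scaled with TMM, filtered with filterByExpr and fitted over all 12 libraries with edgeR 4.0.16 (R 4.3.3), 1 coefficient per group, 8 residual degrees of freedom, two-sided, Benjamini-Hochberg adjusted. Standard errors are the log2 difference over the square root of F. Of 195 members 14 were filtered out. Tested on simulated counts for this SVC and adipocyte contrast (15813 genes), 76.0% of 2-fold and 97.9% of 4-fold changes were recovered and 1.76% of calls were false. Only 100 genes were changed per size, none with very low counts, and the simulated depots did not differ. In the data 42.3% of tested genes were called higher in SVCs and 32.8% in adipocytes, so these rates may not hold there or for members with few counts.

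Named genes were the 2 members per direction with the largest SVC ratio at 5 TPM or more. Gene lists by symbol and depot tests on them were not run, because no table used here pairs the identifiers with symbols.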

Additional observations from a re-analysis of the deposited data

Results flagged for a closer look

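In 7 members higher in EAT SVCs every EAT adipocyte library lay below every IAT adipocyte library, so that all libraries of the 2 fractions went opposite ways. Their adipocyte ratios were 0.684 to 0.812 and their SVC ratios 2.65 to 4.84. Of these members 6 reached 1 TPM in an adipocyte group, as did 88.6% of eligible genes. In 5 the level was higher in adipocytes than in SVCs (edgeR, adjusted p below 0.05), against 32.6% of tested eligible genes. That contrast is not independent of the choice of members, so nothing is read from these counts. The difference in depot ratio between the fractions was not tested, because the rule used both depot ratios. Among all eligible genes 23.2% had EAT adipocyte libraries wholly below the IAT ones.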

How the results depend on the processing

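The number of members follows the bounds of the rule. Against 137 higher and 58 lower in EAT SVCs, a floor of 5 TPM gave 43 and 23, no floor 345 and 117, SVC ratios of at least 4 or at most 0.25 gave 75 and 22, and an adipocyte window from 0.8 to its inverse gave 76 and 33. Chosen after seeing the data, a floor of 1 TPM in an adipocyte group gave 49 and 20, and 43 and 19 when EAT adipocyte replicate 2 was also left out, of which 37 and 14 were members. A pseudocount of 1 TPM gave 139 and 49, of which only 64 and 19 were members, and TMM-scaled CPM gave 114 and 61, with 86 and 42 members. Leaving out 1 library gave 125 to 149 higher and 56 to 87 lower, the 87 without EAT SVC replicate 2. Leaving out replicate 2 of every group gave 140 higher and 96 lower, with 96 and 40 members, and over the 3 replicate numbers the counts ran from 135 to 147 and from 72 to 96. In left-out libraries a pseudocount of 1 TPM gave median log2 SVC ratios of 1.70 in place of 1.94 and -1.64 in place of -1.40. The shares within the adipocyte window were then 80.6%, 78.9% and 72.3% (higher) and 60%, 65.1% and 87.5% (lower). Eligible genes gave 63.3%, 52.5% and 72.4%. A larger pseudocount draws low adipocyte ratios nearer to 1, and whether the window recurs above the background depends on it.

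The calls between SVCs and adipocytes stayed within 1.5 times under every alternative run (limma-voom, DESeq2, its size factors within edgeR, unscaled library sizes, no filter on low counts, replicate block). Over single libraries left out, 78 to 84 and 27 to 29 of the members higher in EAT SVCs were higher in SVCs and in adipocytes, and 42 to 46 and 9 to 10 of the lower ones. With the replicate number as a block the counts were 80 and 29, and 42 and 9. Deviations of same-numbered libraries correlated at -0.0607 to 0.226, with all 3 numbers above 0.1 in 2 of 6 pairs of groups, although all 12 libraries correlated best with their own number. The causes of these changes were not tested. Alternatives for depot tests were not run, since no such test is reported.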
